A study of Danio rerio with 21 samples.

Results

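Antioxidant defence was followed through 10 genes in the telencephalon, a part of the forebrain, of adult zebrafish kept under chronic gamma irradiation. The genes were taken by name, namely sod1, sod2, cat, gpx1a, gpx4a, gpx4b, prdx1, txn, nfe2l2a and hmox1a, and they are 10 of the 32057 Ensembl genes counted. All but nfe2l2a and txn code for enzymes. The rule that picks them uses names only.

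The study compared irradiated with untreated AB fish after 36 days of external exposure to a caesium-137 source. Batch 2 held 6 libraries of fish at 0.05 mGy/h and 6 of untreated controls. Batch 1 held 3 libraries at each of the dose rates of 0.5 and 5 mGy/h and 3 of untreated controls. Each library was a pool of a few dissected telencephalons, with males and females balanced within each condition, so differences between single fish are averaged within it. The labels do not say whether pools of a group came from separate tanks, and p-values measure only the spread between these pools.

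Ionizing radiation splits water in the cell and produces superoxide, hydrogen peroxide and hydroxyl radicals. Superoxide dismutases turn superoxide into hydrogen peroxide, which catalase, glutathione peroxidases and peroxiredoxins then reduce, the peroxiredoxins with electrons that thioredoxin delivers. The transcription factor NRF2 is known from mammals as the inducer of many of these genes under oxidative stress, and neural tissue depends on them because of its high oxygen use and its lipid-rich membranes.

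Counts assigned to genes lay between 19.03 M and 71.6 M per library. Levels are given as CPM, the counts of a library scaled to a common total with TMM factors (edgeR). The smallest level taken as detectable was 3 counts. Taken over the library totals before TMM scaling, it lay between 0.0419 and 0.158 CPM depending on the library. Every one of the 10 genes was far above this floor in all 21 libraries. The 9 telencephalon marker IDs matched (among them foxg1a, emx3 and tbr1b) were detected in every group, with summed levels between 309 and 580 CPM. A pair of libraries stood apart. Control batch 2 replicate 6 correlated with its group mates at r between 0.83 and 0.85 over genes, and 5 mGy/h replicate 1 at r between 0.92 and 0.94, whereas pairs of the other libraries within a group gave r between 0.977 and 0.990. Results that rest on either library are therefore given with and without it.

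None of the 10 genes passed the thresholds at any dose rate. A gene was called at a false discovery rate (FDR) under 0.05 together with a change of at least 1.5-fold, by edgeR's quasi-likelihood test over all genes. At 0.05 mGy/h against control batch 2, 0 of the 10 were called (2 had an unadjusted p under 0.05), beside 0.00514% of all 19454 genes tested (4.26% at that p). At 0.5 mGy/h against control batch 1, 0 of the 10 were called (0 with an unadjusted p under 0.05), beside 0.00469% of 21307 genes (2.37% at that p). The count at 5 mGy/h was again 0 of the 10 (0 with an unadjusted p under 0.05), beside 0.00469% of genes (5.76% with an unadjusted p under 0.05). DESeq2 also called 0 of the 10 at each dose rate, with an unadjusted p under 0.05 for 3 of them at 0.05 mGy/h and 0 at the others. Of all genes, DESeq2 called 15 of 27727 at 0.05 mGy/h, 11 of 27971 at 0.5 mGy/h and 88 of 27971 at 5 mGy/h. Its unadjusted p was under 0.05 for 1252, 543 and 1529 genes in the same order. Of the 131 combinations of comparison and setting, several of which share a fit, 0 called any of the 10.

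The size of the largest differences in the antioxidant genes depended on a single control library. In fish at 0.05 mGy/h, all 10 genes had a negative log2 fold change against control batch 2, with a median of -0.63 and a range of -0.76 to -0.02, while 51.3% of all genes tested did. Without control batch 2 replicate 6 the median was -0.07 and the range -0.26 to 0.09, with 7 of the 10 lower and 3 higher, beside 48.1% of genes lower. With replicate number as a block the median was -0.35, and 0 of the 10 had an unadjusted p under 0.05, beside 4.56% of genes. None of the 10 separated the irradiated from the control libraries, with or without replicate 6, while 0.54% of genes lay below and 0.314% above all controls with it, and 0.735% below and 0.555% above without it.

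Both superoxide dismutases had this pattern. The cytosolic copper-zinc enzyme is coded by sod1, which ranged between 25.0 and 29.6 CPM at 0.05 mGy/h (median 25.7) and between 25.1 and 127.6 CPM in control batch 2 (median 28.6). The mitochondrial manganese enzyme is coded by sod2, which ranged between 58.3 and 77.1 CPM at 0.05 mGy/h (median 68.8) and between 70.0 and 267 CPM in control batch 2 (median 77.4). For both, the top control value belonged to replicate 6, and the next highest control was 34.6 CPM for sod1 and 87.0 CPM for sod2. The groups overlapped for either gene. The log2 fold change of sod1 was -0.76 ± 0.38 (SE, n = 6 each; FDR = 0.75 by edgeR) with all libraries and -0.11 ± 0.09 (FDR = 0.775 by edgeR) without control batch 2 replicate 6. For sod2 it was -0.67 ± 0.31 (unadjusted p = 0.0516, FDR = 0.75 by edgeR), and -0.18 ± 0.08 (unadjusted p = 0.0391, FDR = 0.598 by edgeR) without that library. Reads on the strand opposite to sod2 amounted to between 4.75% and 52.7% of its own count across the 21 libraries.

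**Figure D1:**
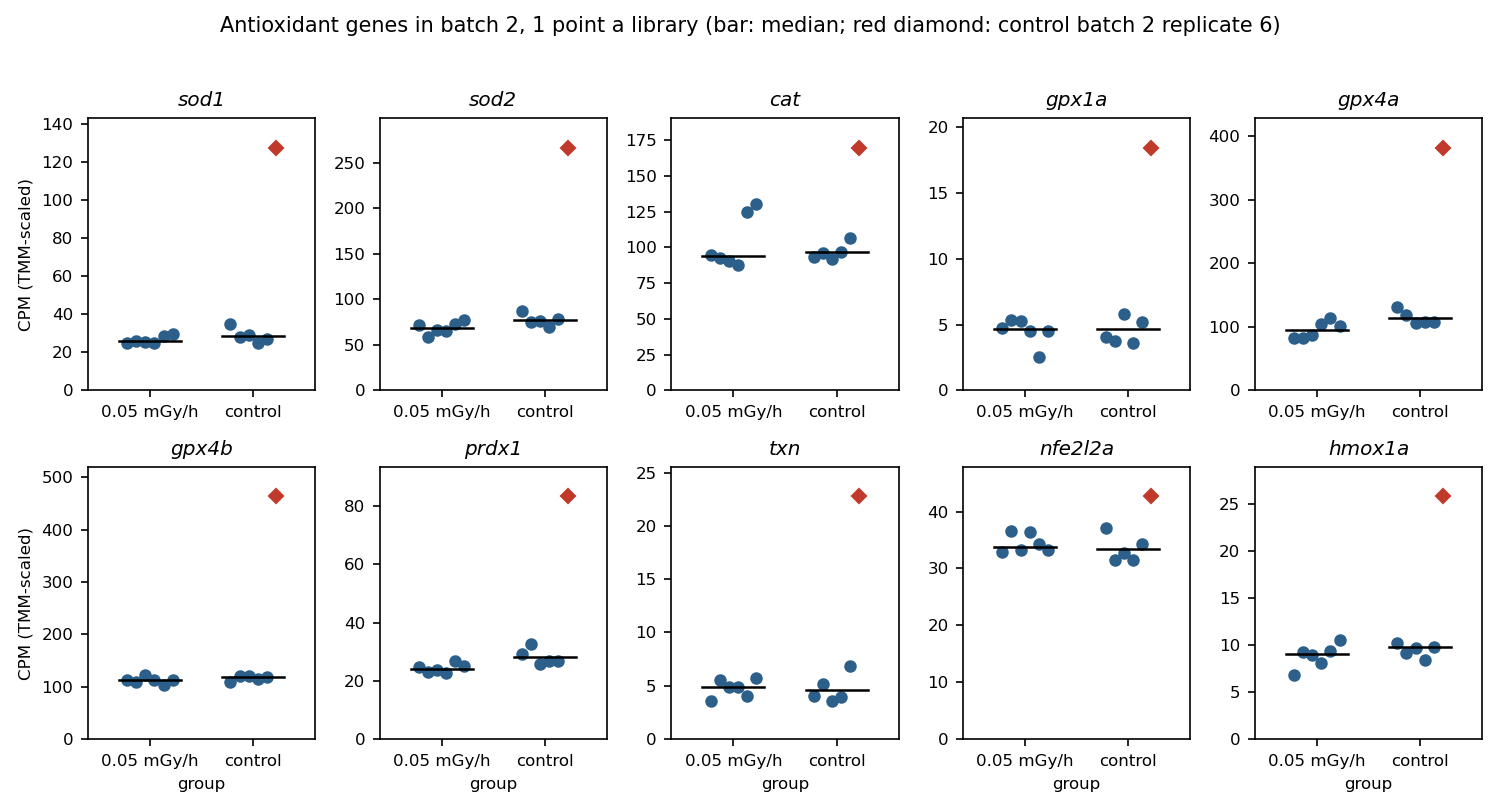
Level of each of the 10 antioxidant genes in batch 2, in TMM-scaled CPM on linear axes that start at 0. Each point is a library, the bar is the group median, and the red diamond is control batch 2 replicate 6, which was the highest library of the batch for all 10 genes (127.6 CPM for sod1, 464 CPM for gpx4b, 42.7 CPM for nfe2l2a).

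Among the peroxide-reducing enzymes, gpx4a and gpx4b code for phospholipid hydroperoxide glutathione peroxidases, which reduce oxidized membrane lipids. The level of gpx4a lay between 82.2 and 114 CPM at 0.05 mGy/h (median 94.8) and between 106 and 382 CPM in control batch 2 (median 113.5). The level of gpx4b lay between 103 and 122 CPM at 0.05 mGy/h (median 112.7) and between 109 and 464 CPM in control batch 2 (median 118.9). For gpx4a, 5 of the 6 irradiated libraries were below the lowest control, and the groups still overlapped. The log2 fold change of gpx4a was -0.73 ± 0.31 (unadjusted p = 0.0344, FDR = 0.75 by edgeR), -0.26 ± 0.10 (unadjusted p = 0.0180, FDR = 0.55 by edgeR) without control batch 2 replicate 6, and -0.54 ± 0.25 (unadjusted p = 0.0680 by edgeR) with the replicate block. For gpx4b it was -0.63 ± 0.35, and -0.05 ± 0.05 without that library, when its 95% interval ran from -0.17 to 0.07.

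Peroxiredoxin 1 is a cytosolic thiol peroxidase. The level of prdx1 lay between 22.8 and 26.7 CPM at 0.05 mGy/h (median 24.2) and between 25.8 and 83.4 CPM in control batch 2 (median 28.1). As for gpx4a, 5 of the 6 irradiated libraries were below the lowest control, with or without control batch 2 replicate 6, and the groups overlapped. The log2 fold change of prdx1 was -0.62 ± 0.28 (unadjusted p = 0.0419, FDR = 0.75 by edgeR), and -0.22 ± 0.08 (unadjusted p = 0.0123, FDR = 0.52 by edgeR) without that library. With the block and without both replicates numbered 6, sod2 (-0.22, unadjusted p = 0.0056), prdx1 (-0.22, unadjusted p = 0.0241) and gpx4a (-0.29, unadjusted p = 0.0274 by edgeR) had a p under 0.05, none of which passed the FDR (lowest 0.304). In that fit 0.0258% of genes were called, 12.2% had an unadjusted p under 0.05, and 7.94% did in the fit without control batch 2 replicate 6, beside 3 of the 10 genes in each.

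For the other members too the groups overlapped. Catalase, the peroxisomal enzyme that splits hydrogen peroxide, lay between 87.8 and 130.5 CPM at 0.05 mGy/h (median 94.0) and between 92.1 and 169.9 CPM in control batch 2 (median 96.6). Its log2 fold change was -0.07 ± 0.17 and turned to 0.09 ± 0.11 without control batch 2 replicate 6. The 2 highest irradiated values, 124 and 130.5 CPM, came from replicates 5 and 6. The glutathione peroxidase gene gpx1a lay between 2.55 and 5.31 CPM at 0.05 mGy/h (median 4.64) and between 3.60 and 18.4 CPM in control batch 2 (median 4.62). Apart from replicate 6, its controls reached at most 5.83 CPM, so the groups overlapped over most of their ranges. The log2 fold change of gpx1a was -0.60 ± 0.40, and -0.0043 without control batch 2 replicate 6.

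Thioredoxin, the small protein that returns peroxiredoxins to their reduced form, had its top value in the same control library. The level of txn lay between 3.62 and 5.72 CPM at 0.05 mGy/h (median 4.86) and between 3.55 and 22.8 CPM in control batch 2 (median 4.59). Its log2 fold change moved to 0.01 ± 0.18 without control batch 2 replicate 6, against -0.69 ± 0.43 with it. The haem oxygenase gene hmox1a, a classical NRF2 target in mammals, lay between 6.82 and 10.6 CPM at 0.05 mGy/h (median 9.10) and between 8.42 and 25.8 CPM in control batch 2 (median 9.75). The log2 fold change of hmox1a was -0.46 ± 0.27, and -0.098 without control batch 2 replicate 6. The NRF2 gene nfe2l2a itself lay between 32.9 and 36.6 CPM at 0.05 mGy/h (median 33.8) and between 31.5 and 42.7 CPM in control batch 2 (median 33.4). Its coefficient of variation in control batch 2 was 12.4%, against 27.7% to 96.8% for the other members. Without replicate 6 it was 7.02%, above those of gpx4b (4.18%) and cat (5.83%). The log2 fold change of nfe2l2a was -0.02 ± 0.10, and 0.043 without control batch 2 replicate 6.

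Without control batch 2 replicate 6, the 95% interval of the change at 0.05 mGy/h lay inside 1.5-fold in both directions for all 10 genes, the widest limits being -0.47 and 0.41 on the log2 scale. With that library it did so for 2 of the 10, cat and nfe2l2a. In that fit without replicate 6, 0.041% of 19527 genes were called and 0 of the 10 members.

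Control batch 2 replicate 6 was examined member by member. Relative to the median of the 5 other controls, txn was 5.63 times as high in it, sod1 4.58 times, gpx1a 4.51 times and gpx4b 3.94 times. The ratios of gpx4a, sod2 and prdx1 were 3.54, 3.51 and 3.10, and those of hmox1a, cat and nfe2l2a were 2.67, 1.77 and 1.31. All 10 genes were above every group mate, where 44.4% of the 17239 genes with a mean of at least 1 CPM were, and 70% of the 10 were at least 3-fold above, where 7.70% of all genes were. The median ratio over all genes was 1.03. As the members share 1 library here, these ratios describe that library and are not evidence on any treatment.

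The other antioxidant lists also had median ratios above 1 in that library, and the lists of NRF2 regulators and of NADPH oxidase genes did not. Median ratios were 2.90 for the other thioredoxin and glutaredoxin genes (7 genes), 2.46 for the other peroxiredoxins (5 genes), 2.00 for glutathione synthesis and use (13 genes), 0.83 for the partners and regulators of NRF2 (11 genes) and 0.86 for the superoxide-producing NADPH oxidases (6 genes). The list of partners and regulators was taken by name and includes maf1a, which is not a small Maf gene. Some named genes of the lists of NRF2 partners and of NRF2 target, haem or iron genes were at their minimum of control batch 2 there. These were hmox2b (0.196 CPM), tfr1a (0.471 CPM), osgin2 (0.588 CPM), mafk (0.0784 CPM) and maff (9.33 CPM). The ferritin genes fth1a (2215 CPM) and fthl27 (273 CPM) and the regulator gene sqstm1 (128 CPM) were at their maximum. The mafk value was under the floor of that library, 0.0935 CPM before TMM scaling. Several marker lists differed in replicate 6 as well. The 3 preoptic and hypothalamic markers matched summed to 1276 CPM, against 44.3 to 135 CPM in the other controls, with 66.7% of the 3 above every group mate. The 11 microglia and macrophage markers summed to 1258 CPM, against 343 to 425 CPM, and the 9 telencephalon markers to 549 CPM, against 309 to 452 CPM. Neuron markers had a median ratio of 0.64, and the share of unmapped reads was 8.66% against 5.02% to 5.73%. The share of mapped reads that matched no gene feature on the counted strand was 17.3% of all reads, against 23.5% to 25.1%. The part of these differences in the antioxidant levels was not tested, and in pooled tissue a change in the number of cells of a type cannot be told apart from a change in RNA per cell.

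**Figure D2:**
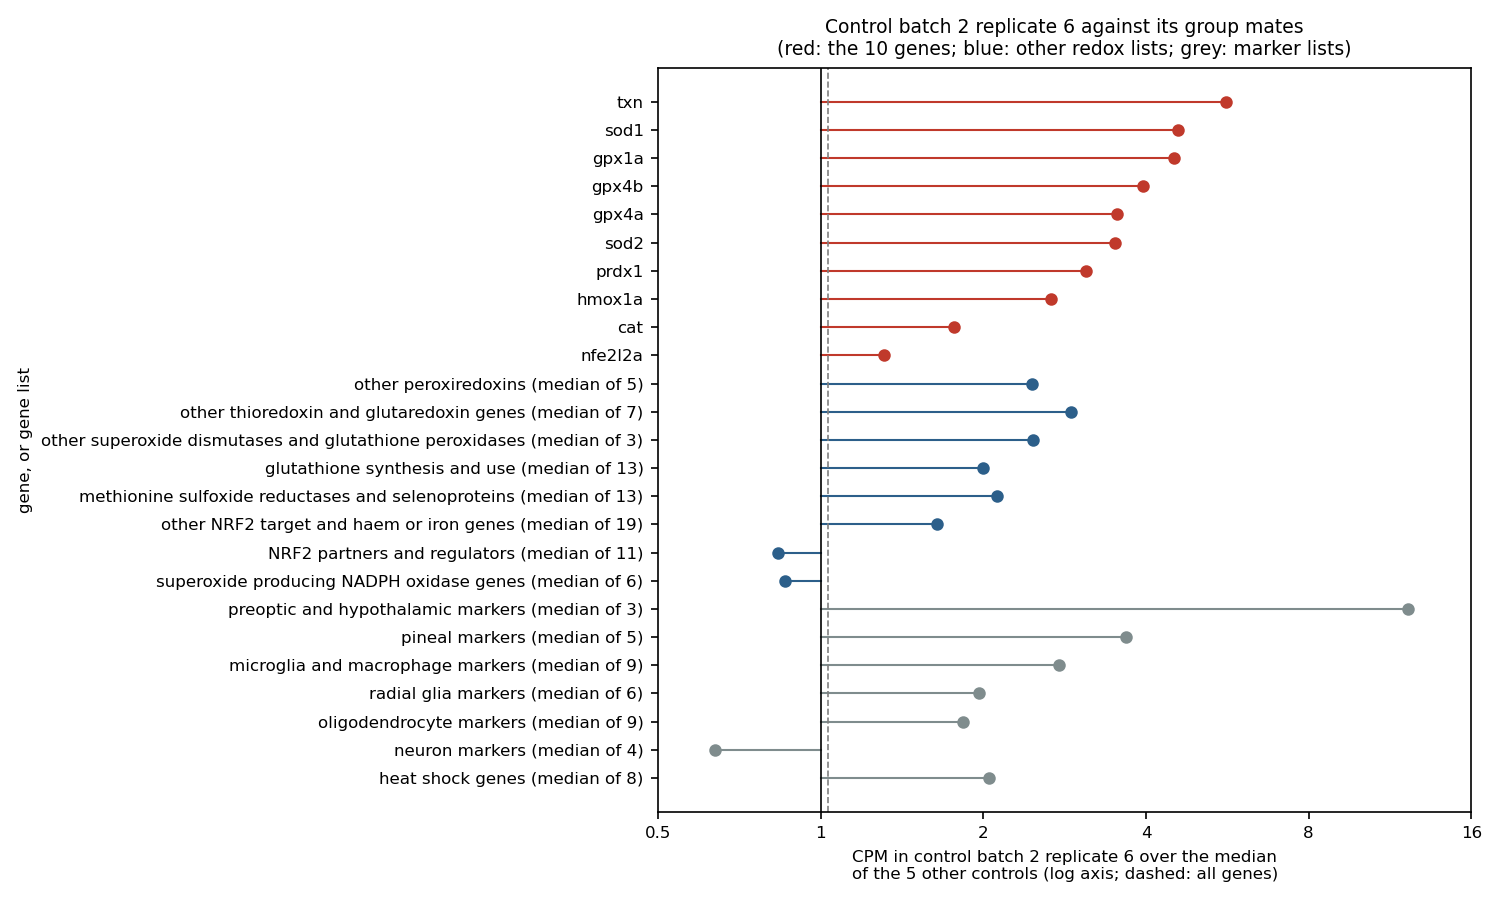
Ratio of the CPM in control batch 2 replicate 6 to the median of the 5 other controls of its batch, on a log axis, for each of the 10 antioxidant genes (red) and as medians of the other redox lists (blue) and of marker lists (grey), with the median over all genes as a dashed line (1.03). The 10 genes lie between 1.31 and 5.63, the NRF2 partners at 0.83 and the neuron markers at 0.64.

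At 0.5 mGy/h the antioxidant genes stayed close to the controls of batch 1. Their log2 fold changes lay between -0.27 (gpx1a) and 0.15 (txn) with a median of -0.08, 9 of the 10 being negative beside 46.8% of all genes. The level of sod1 was 23.3, 24.1 and 26.8 CPM at 0.5 mGy/h, against 23.9, 26.4 and 24.4 CPM in control batch 1. The level of sod2 was 76.4, 73.4 and 81.2 CPM at 0.5 mGy/h, against 78.4, 77.3 and 77.3 CPM in control batch 1. For both genes the irradiated libraries lay around the controls, and the controls of sod2 were nearly equal (coefficient of variation 0.88%).

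Of the peroxidases, gpx1a was 10.9, 7.93 and 8.24 CPM at 0.5 mGy/h, against 9.34, 10.8 and 12.7 CPM in control batch 1, a log2 fold change of -0.27 ± 0.21 (FDR above 0.99 by edgeR). Values of gpx4a were 80.5, 109 and 107 CPM at 0.5 mGy/h, against 111, 95.7 and 106 CPM in control batch 1. Those of gpx4b were 118, 126 and 130.2 CPM at 0.5 mGy/h, against 137, 138 and 124 CPM in control batch 1. In each of these the groups overlapped, and for gpx4a 1 of the 3 irradiated libraries was below the lowest control. None of the 10 genes separated the 3 irradiated from the 3 control libraries, while 4.42% of genes did so upward and 6.65% downward.

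The NRF2 gene and its target overlapped with the controls as well. The level of nfe2l2a was 40.6, 47.1 and 42.2 CPM at 0.5 mGy/h, against 49.4, 42.0 and 47.3 CPM in control batch 1, and hmox1a was 9.74, 11.2 and 11.1 CPM, against 11.05, 11.3 and 11.4 CPM. Catalase was 89.4, 96.1 and 106 CPM at 0.5 mGy/h, against 106, 101 and 107 CPM in control batch 1. Of the thiol system, prdx1 was 30.4, 38.4 and 28.2 CPM at 0.5 mGy/h, against 43.7, 27.9 and 29.5 CPM in control batch 1, and txn was 7.30, 11.4 and 9.60 CPM, against 9.01, 7.48 and 8.94 CPM. The 43.7 CPM of prdx1 was control batch 1 replicate 1, without which its log2 fold change was 0.17, against -0.06 with all libraries. The 95% interval of the change lay inside 1.5-fold for 9 of the 10 genes, the exception being gpx1a with a lower limit of -0.75.

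**Figure D3:**
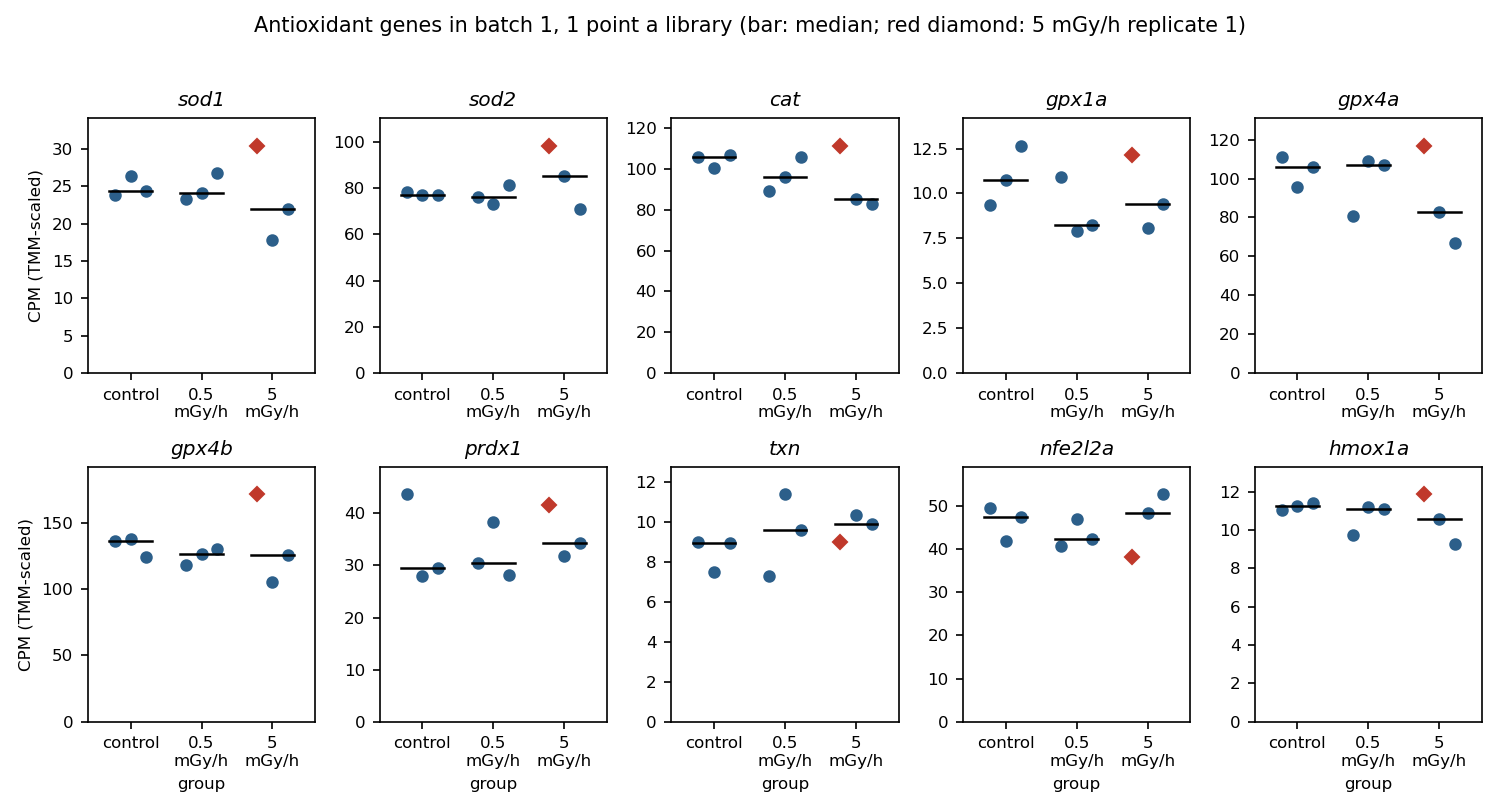
Level of each of the 10 antioxidant genes in batch 1, in TMM-scaled CPM on linear axes that start at 0, for control fish and fish at 0.5 or 5 mGy/h. Each point is a library, the bar is the group median, and the red diamond is 5 mGy/h replicate 1, which was the highest of its group for 8 of the 10 genes and the lowest for nfe2l2a and txn.

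At 5 mGy/h the library that stood apart was an irradiated one, and the values of several members depended on it. With all libraries the log2 fold changes lay between -0.23 (gpx4a) and 0.20 (txn), 5 positive and 5 negative, with a median of -0.04, beside 44.4% of genes negative. Catalase was 111, 85.2 and 82.7 CPM at 5 mGy/h, against 106, 101 and 107 CPM in control batch 1. The level of gpx4a was 117, 82.9 and 66.8 CPM at 5 mGy/h, against 111, 95.7 and 106 CPM in control batch 1. That of sod1 was 30.5, 17.9 and 22.0 CPM at 5 mGy/h, against 23.9, 26.4 and 24.4 CPM in control batch 1. In all 3 genes replicate 1 was above every control and replicates 2 and 3 below every control.

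Without 5 mGy/h replicate 1, catalase had a log2 fold change of -0.32 ± 0.08 (0.80-fold, 95% interval -0.50 to -0.14, FDR = 0.0461 by edgeR, 2 libraries against 3). It passed the FDR but not the fold change of 1.5. The change of gpx4a was -0.48 ± 0.16 (unadjusted p = 0.0155, FDR = 0.11 by edgeR), that of sod1 -0.33 ± 0.11 (unadjusted p = 0.0176, FDR = 0.11 by edgeR) and that of gpx4b -0.21 ± 0.09 (unadjusted p = 0.0496, FDR = 0.21 by edgeR). With all libraries, the same changes were -0.17 ± 0.12 for catalase, -0.23 ± 0.20 for gpx4a, -0.09 ± 0.18 for sod1 and 0.01 ± 0.16 for gpx4b. Among all genes the fit without that library gave an unadjusted p under 0.05 for 24.1% and an FDR under 0.05 for 9.13%, beside 4 and 1 of the 10 members. It called 6.34% of 21673 genes (1325 higher and 50 lower), and 0 of the 10. Catalase was thus one of 1979 genes with an FDR under 0.05 in that fit, and one of the 355 (1.64% of all genes) that were lower.

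The other members did not pass either threshold in that fit. The level of gpx4b was 171, 105 and 126 CPM at 5 mGy/h, against 137, 138 and 124 CPM in control batch 1, and gpx1a was 12.14, 8.06 and 9.40 CPM, against 9.34, 10.8 and 12.7 CPM. For both, replicate 1 was the highest of the irradiated libraries. The log2 fold change of gpx1a was -0.15 with all libraries and -0.33 without replicate 1 (mean 8.73 CPM, against 10.9 CPM in control batch 1). The level of sod2 was 98.4, 85.3 and 70.9 CPM at 5 mGy/h, against 78.4, 77.3 and 77.3 CPM in control batch 1, with a log2 fold change of 0.13 ± 0.11 with all libraries and 0.0029 ± 0.09 without replicate 1 (95% interval -0.20 to 0.20). The level of prdx1 was 41.6, 31.9 and 34.2 CPM at 5 mGy/h, against 43.7, 27.9 and 29.5 CPM in control batch 1. The log2 fold change of prdx1 was 0.092 with all libraries and -0.034 without replicate 1. Thioredoxin was 9.01, 10.3 and 9.89 CPM at 5 mGy/h, against 9.01, 7.48 and 8.94 CPM in control batch 1. For txn the change was 0.25 ± 0.19 without replicate 1, and its interval of -0.19 to 0.68 includes both no change and a rise of over 1.5-fold.

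For the NRF2 gene, replicate 1 was on the other side of the controls than for catalase. The level of nfe2l2a was 38.2, 48.4 and 52.7 CPM at 5 mGy/h, against 49.4, 42.0 and 47.3 CPM in control batch 1, replicate 1 being the lowest of the 6. Its log2 fold change was 0.0057 ± 0.13, and 0.12 ± 0.09 without replicate 1 (95% interval -0.10 to 0.34). Its target hmox1a was 11.9, 10.6 and 9.27 CPM at 5 mGy/h, against 11.05, 11.3 and 11.4 CPM in control batch 1, a change of -0.09 ± 0.13, and of -0.18 ± 0.11 without replicate 1. Without replicate 1, sod1, cat, gpx4a and hmox1a lay below all controls and txn above all, where 19.9% of genes lay below and 22.2% above. The second txn ID, described further below, lay below all controls there. With all libraries, none of the 10 separated the groups, beside 4.95% of genes below and 3.94% above.

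**Figure D4:**
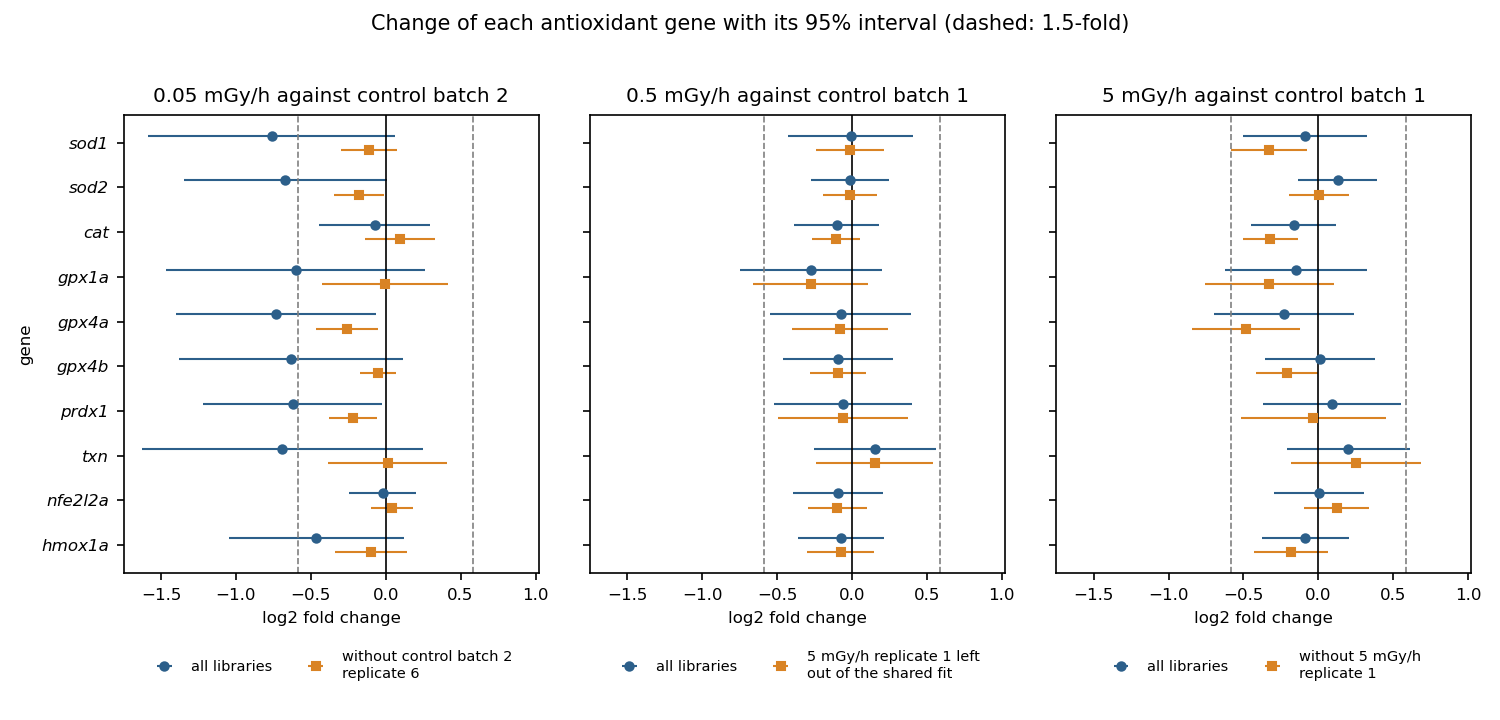
Log2 fold change of each antioxidant gene with its 95% interval, at 0.05 mGy/h against control batch 2, and at 0.5 and 5 mGy/h against control batch 1. Circles are fits with all libraries and squares fits without control batch 2 replicate 6 (left) or 5 mGy/h replicate 1 (middle and right), and dashed lines mark 1.5-fold. At 0.05 mGy/h the median of the 10 is -0.63 with all libraries and -0.07 without the library that stood apart, and at 5 mGy/h it is -0.04 and -0.20.

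Between the dose rates of batch 1, 0 of the 10 genes were called at 5 mGy/h against 0.5 mGy/h (0 with an unadjusted p under 0.05), beside 0.00469% of all genes (5.24% at that p). Values of the 10 lay between -0.15 and 0.15 on the log2 scale, and none of the genes separated the groups, where 4.95% of all genes lay below and 4.36% above. Without 5 mGy/h replicate 1, sod1 (-0.32, unadjusted p = 0.0210), gpx4a (-0.40, unadjusted p = 0.0327) and cat (-0.21, unadjusted p = 0.0269) were lower at 5 mGy/h and nfe2l2a (0.22, unadjusted p = 0.0478 by edgeR) higher, all with an FDR of at least 0.14, beside 22.3% of all genes at an unadjusted p under 0.05 and 5.47% called. In that fit sod1 and cat lay below and nfe2l2a above all 0.5 mGy/h libraries, where 18.6% of genes lay below and 22.5% above. The changes of different batches were compared as an interaction over all libraries. For the change at 0.5 mGy/h minus that at 0.05 mGy/h, 0 of the 10 were called (0 with an unadjusted p under 0.05), beside 0% of genes (2.03% with an unadjusted p under 0.05). The 10 values lay between -0.08 and 0.84 with all libraries (median 0.55, 8 positive), and without control batch 2 replicate 6 they lay between -0.27 and 0.17, with 0 at an unadjusted p under 0.05 (4.63% of genes). Without both libraries that stood apart, 0 of the 10 had such a p (6.68% of genes, 0.00465% called). For the change at 5 mGy/h minus that at 0.05 mGy/h, 0 of the 10 were called (0 with an unadjusted p under 0.05), beside 0% of genes (4.42% at that p), with values between -0.09 and 0.89 (median 0.57, 9 positive). With 1 library left out, 0 of the 10 were called either, beside 0.00468% of genes without control batch 2 replicate 6 and 0% without 5 mGy/h replicate 1. Without control batch 2 replicate 6 this difference for sod2 was 0.29 ± 0.13 (unadjusted p = 0.0448, FDR = 0.610 by edgeR). In that fit 1 of the 10, sod2, had an unadjusted p under 0.05, beside 8% of all genes, and without 5 mGy/h replicate 1, 0 of the 10 had such a p, beside 5.38% of all genes. With both libraries that stood apart left out, this second contrast called 5.82% of genes and 0 of the 10, whose values lay between -0.40 and 0.25. There cat, at -0.40 ± 0.17 (unadjusted p = 0.0311, FDR = 0.235 by edgeR), was the 1 member with an unadjusted p under 0.05, beside 16.1% of genes.

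Within groups, the 10 genes varied together more closely with the libraries that stood apart than without them. Over all 21 libraries, the deviations of log2 CPM from the group means correlated at a median r of 0.83 among the 45 gene pairs (0.20 to 0.96), and over the 19 other libraries at a median of 0.14 (-0.70 to 0.54). Control batch 2 replicate 6 was above every group mate for all 10 genes, which by itself raises r over the 21 libraries. No r among pairs of all genes is given beside it. The points share library, depth and scaling, so these values are descriptive. The gene whose deviations were most like those of gpx4b was EIF3F, a subunit of a translation initiation factor, at r = 0.996 over 21 libraries and 0.90 over 19, and it was the nearest gene in both sets. The nearest genes over 21 libraries were TAF10 for sod1 (r = 0.99), CNEP1R1 for sod2 (r = 0.98), HMGB2 for gpx4a (r = 0.98) and ATG4B for cat (r = 0.97). For nfe2l2a it was dcn at r = 0.78, the lowest of the 10. Each nearest gene was the highest of 17430 genes searched. The 19 libraries were all among the 21 by which these genes were picked. Over the 19, TAF10, CNEP1R1, HMGB2 and ATG4B had r of 0.84, 0.83, 0.84 and 0.90 with the same members. Other genes were then the nearest to these members.

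The names prdx1 (ENSDARG00000058734 in the values above) and txn (ENSDARG00000044125, now listed as txnb) each matched a second gene ID. The second prdx1 ID (ENSDARG00000025350), listed in RefSeq as prdx2, was 174, 168 and 169 CPM at 0.5 mGy/h, against 201, 198 and 182 CPM in control batch 1, so that the groups did not overlap, where 6.65% of all genes lay below the controls in this way. Its log2 fold change there was -0.19 ± 0.11 (unadjusted p = 0.13, FDR above 0.99 by edgeR). At 5 mGy/h it was 227, 165 and 183 CPM, against the same controls, and it overlapped them. With 5 mGy/h replicate 1 left out of the shared fit, its change at 0.5 mGy/h was -0.19 ± 0.06 (unadjusted p = 0.00996, FDR = 0.942 by edgeR), in a fit where 5.2% of all genes had an unadjusted p under 0.05. The second txn ID (ENSDARG00000031435), listed as txna, had a log2 fold change of -0.57 ± 0.31 at 0.05 mGy/h, and -0.09 ± 0.07 without control batch 2 replicate 6. In control batch 1 it was 137, 123 and 127 CPM, against 9.01, 7.48 and 8.94 CPM for the first txn ID. At 5 mGy/h it was 181, 112 and 118 CPM. Replicates 2 and 3 there lay below all controls, as did 19.9% of genes without replicate 1. Neither second ID was called in any of the 3 comparisons with controls, with or without those libraries.

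Beyond the 10 genes, 88 IDs of 8 further redox lists were read (7 of antioxidant, NRF2-related, haem or iron genes and 1 of superoxide-producing NADPH oxidase genes), 79 of them tested in batch 2 and 83 in batch 1. With all libraries, 0 of them were called by edgeR at any dose rate. Before adjustment, p was under 0.05 for 2 higher and 7 lower genes at 0.05 mGy/h, for 1 higher and 2 lower at 0.5 mGy/h, and for 1 higher and 1 lower at 5 mGy/h, beside 4.26%, 2.37% and 5.76% of all genes. Without control batch 2 replicate 6 it was so for 3 higher and 4 lower genes at 0.05 mGy/h, beside 7.94% of all genes. Their median log2 fold change was -0.22 at 0.05 mGy/h, and 0.0038 without control batch 2 replicate 6. Some of the most abundant genes of these lists also had their highest 5 mGy/h value in replicate 1. Ferritin heavy chain fth1a, which stores iron, was 1144, 767 and 839 CPM at 5 mGy/h, against 917, 971 and 823 CPM in control batch 1, and prdx5 was 128, 96.1 and 94.05 CPM at 5 mGy/h, against 107.1, 107.8 and 107.6 CPM in control batch 1. In both, replicate 1 was above the controls, and for prdx5 the other irradiated libraries were below them.

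Without 5 mGy/h replicate 1, 5 of the 84 wider genes tested were called at 5 mGy/h against control batch 1, 4 of them higher and 1 lower. They are named because of these values. Of all genes, 6.34% were called in that fit, so the 5 of 84 lay close to the share over all genes. The rise was largest for tfr1a, a transferrin receptor gene for iron uptake, at 0.444, 10.96 and 8.02 CPM at 5 mGy/h, against 2.23, 2.50 and 2.25 CPM in control batch 1 (log2 fold change 2.02 ± 0.26, FDR = 0.00567 by edgeR). The constitutive-type haem oxygenase gene hmox2b was 0.0666, 2.33 and 4.21 CPM at 5 mGy/h, against 1.19, 0.798 and 1.19 CPM in control batch 1 (1.61 ± 0.31, FDR = 0.0206 by edgeR). Of the small Maf genes, whose products pair with NRF2 on DNA in mammals, mafk rose, with 0, 1.18 and 1.34 CPM at 5 mGy/h, against 0.423, 0.399 and 0.359 CPM in control batch 1 (1.66 ± 0.41, FDR = 0.0479 by edgeR) and maff fell, with 12.2, 7.46 and 10.5 CPM at 5 mGy/h, against 14.4, 16.1 and 13.0 CPM in control batch 1 (-0.70 ± 0.17, FDR = 0.0496 by edgeR). For osgin2, an oxidative stress-induced growth inhibitor gene, the values were 1.15, 8.82 and 9.76 CPM at 5 mGy/h, against 5.82, 5.44 and 5.20 CPM in control batch 1 (0.75 ± 0.12, FDR = 0.00972 by edgeR). In 5 mGy/h replicate 1, mafk was under the floor of that library (0.0646 CPM before TMM scaling) and hmox2b at or close to it.

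In the 4 genes that rose, the omitted replicate was below every control of batch 1 and replicates 2 and 3 above every control of that batch. With it included, none of the 5 was called, the log2 fold changes being 1.48 ± 0.84 for tfr1a, 1.05 ± 0.94 for hmox2b, 1.097 ± 1.04 for mafk, 0.26 ± 0.60 for osgin2 and -0.53 ± 0.19 for maff. In control batch 2, scaled separately, medians were 5.50 CPM for tfr1a, 5.61 CPM for hmox2b, 1.68 CPM for mafk and 9.98 CPM for osgin2. For hmox2b, mafk and osgin2 these untreated medians were above replicates 2 and 3 of 5 mGy/h, and for tfr1a below them. In batch 2, maff had at 0.05 mGy/h a positive value, 0.41 ± 0.14 (unadjusted p = 0.0120, FDR = 0.75 by edgeR), and 0.32 ± 0.09 (FDR = 0.37 by edgeR) without control batch 2 replicate 6. The gene cybb, which codes for the superoxide-producing subunit of the phagocyte NADPH oxidase, had -0.36 ± 0.13 and, without that library, -0.42 ± 0.10 (FDR = 0.26 by edgeR). Neither gene was called.

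Pineal markers differed between the libraries of batch 1, where their 6 IDs summed to 713 CPM in replicate 1 and to 8.23 and 13.0 CPM in the others of control batch 1, to between 6.20 and 538 CPM at 0.5 mGy/h (median 236), and to 345 CPM in replicate 1 and 560 and 741 CPM in the others at 5 mGy/h. Control batch 1 replicate 1 had hmox2b at 1.19 CPM, against 0.798 and 1.19 CPM in the other controls of batch 1, and tfr1a at 2.23 CPM, against 2.50 and 2.25 CPM. It was the highest of these controls for osgin2 (5.82 CPM, against 5.44 and 5.20 CPM) and mafk (0.423 CPM, against 0.399 and 0.359 CPM). The part of pineal or neighbouring tissue in the changes of the wider genes was not tested.

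**Figure D5:**
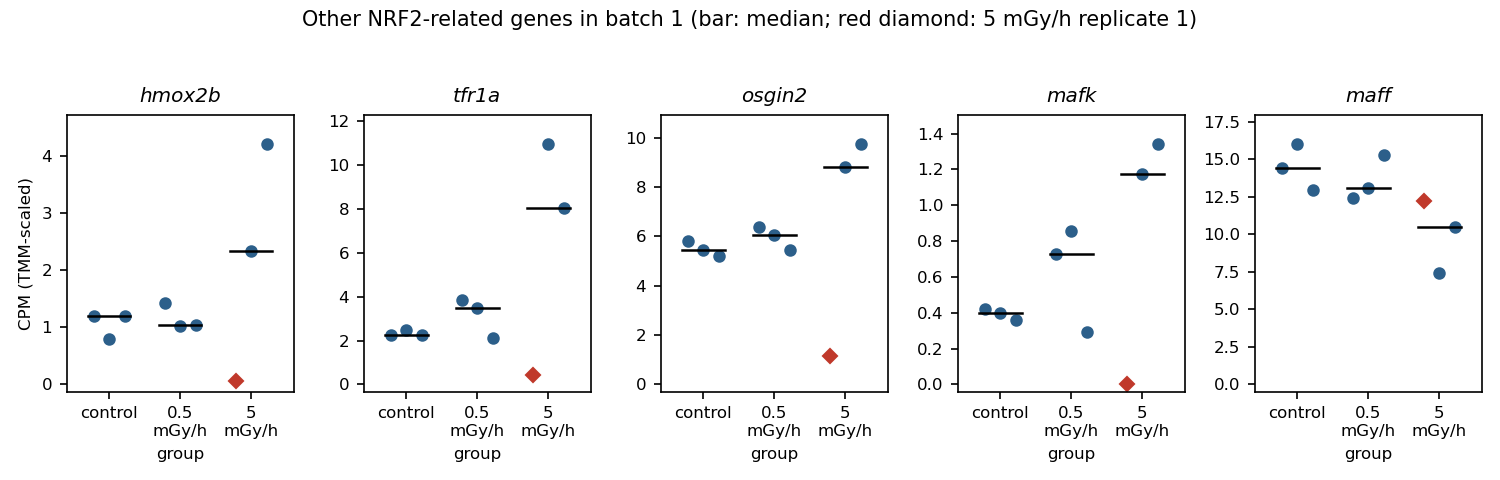
Level of the wider genes called at 5 mGy/h without replicate 1, in TMM-scaled CPM on linear axes, for control fish and fish at 0.5 or 5 mGy/h of batch 1. They come from the lists of NRF2 partners and of other NRF2 target, haem or iron genes. Each point is a library, the bar is the group median, and the red diamond is 5 mGy/h replicate 1, which was the lowest library of the batch for hmox2b, tfr1a, osgin2 and mafk, whereas replicates 2 and 3 of 5 mGy/h were the 2 highest.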

How the data were processed

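Poly(A) RNA of pooled telencephalons was sequenced in 21 libraries. The authors aligned the reads with STAR to GRCz11 and deposited gene counts per library, and the submitters' notes name DESeq2 1.22.2 for their own tests. The fourth column of each deposited file, the stranded counts of 32057 genes, was used, and rows that name no gene (39.9% to 45.0% of reads) were left out. Assigned counts were 19.03 to 71.6 M per library, and the floor of 3 counts covers counting error only. Names were matched to 28988 IDs. The 10 genes and all gene lists were chosen with earlier results of these data known. Lists were taken by name, and maf1a (NRF2 partners) and ftr82 (haem or iron genes) do not code for a small Maf or a ferritin.

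Tests used edgeR 4.0.16 in R 4.3.3 (TMM scaling, filterByExpr, quasi-likelihood test with Benjamini-Hochberg adjustment over all genes), per batch, with an FDR under 0.05 and a change of at least 1.5-fold. DESeq2 1.42.0 was an alternative, as were other scalings, filters, fits and left-out libraries. The blocked fit of batch 2 without pair 6, and the 0.5 mGy/h comparison with 5 mGy/h replicate 1 left out of the shared fit, were added after seeing the data. Named genes were all members, genes of the wider lists with an unadjusted p under 0.01 against controls or among the 2 most abundant of their list, and the nearest gene of each member by correlation. The 5 wider genes of the fit without 5 mGy/h replicate 1 were named after their values were seen.

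Same-numbered libraries of batch 2 deviated together (r = 0.18 to 0.31 in 6 of 6 pairs, each over 0.1), so these numbers were treated as pairs in the blocked fit. Differently numbered libraries of batch 2 gave r between -0.36 and 0.33, with 7 of 30 pairs over 0.1. The labels name no pairs, so the block was inferred from the same data that it was used on.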

Additional observations from a re-analysis of the deposited data

Results flagged for a closer look

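In control batch 2, replicate 6 lay far from the 5 other controls for 9 of the 10 genes. Its levels were 127.56 CPM for sod1, 266.72 CPM for sod2, 169.91 CPM for cat, 18.43 CPM for gpx1a and 381.69 CPM for gpx4a. They were 463.61 CPM for gpx4b, 83.405 CPM for prdx1, 25.841 CPM for hmox1a and 22.782 CPM for txn. At 0.05 mGy/h, gpx1a was 2.5508 CPM in replicate 5, against 4.48 to 5.31 CPM in the other irradiated libraries. Each of the 10 genes was examined in both groups of batch 2, and 10 of these 20 sets of values held such a library. Chance flags about 1 in 20 independent groups, but these 20 sets share their libraries and are not independent, and 9 of the 10 come from that 1 control library.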

How the results depend on the processing

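All 131 combinations of comparison and setting, several of which share a fit, called 0 of the 10 genes. The numbers of all genes called moved more (with all libraries 1 gene in each comparison with controls and at 5 against 0.5 mGy/h, and 0 in both differences of changes). At 0.05 mGy/h DESeq2 called 15 genes, the replicate block 0, 1 fit over 21 libraries 2 and the block without pair 6 called 5. At 0.5 mGy/h DESeq2 called 11, and the stricter filter of 10 counts, the replicate block, 1 fit over 21 libraries, the 2 groups alone and the fit without 5 mGy/h replicate 1 called 0. At 5 mGy/h DESeq2 called 88, and the replicate block, 1 fit over 21 libraries and the 2 groups alone called 0. At 5 against 0.5 mGy/h DESeq2 called 50, and the filter of 10 counts, the replicate block, 1 fit over 21 libraries and the 2 groups alone called 0. For the differences of changes, DESeq2 called 3 (0.5 minus 0.05 mGy/h) and 5 (5 minus 0.05 mGy/h), and without both libraries that stood apart 1 and 1254 were called. Leaving out 1 library gave 0 to 8 genes at 0.05 mGy/h (8 without control batch 2 replicate 6), 0 to 1 at 0.5 mGy/h, 0 to 1375 at 5 mGy/h, 0 to 1185 at 5 against 0.5 mGy/h (both highest without 5 mGy/h replicate 1), and 0 to 3 for each difference of changes. The causes were not tested.

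Signs of log2 fold changes near 0 turned in some fits. At 0.05 mGy/h, without pair 6 in the replicate block, cat was 0.0076 and nfe2l2a 0.056, and nfe2l2a was 0.011 with unstranded counts. At 5 mGy/h gpx4b was -0.0036 with DESeq2, -0.00097 with RLE size factors and -0.0036 with the replicate block, and nfe2l2a was -0.0071, -0.0041 and -0.0045 in the same fits and -0.0012 without a filter. Leaving out 1 library at 0.05 mGy/h gave -0.15 to 0.094 for cat, -0.050 to 0.043 for nfe2l2a and -0.84 to 0.013 for txn. At 0.5 mGy/h it gave -0.071 to 0.033 for sod1, -0.052 to 0.021 for sod2, -0.15 to 0.052 for gpx4a, -0.20 to 0.17 for prdx1 and -0.0051 to 0.31 for txn. At 5 mGy/h it gave -0.33 to 0.074 for sod1, -0.21 to 0.16 for gpx4b, -0.034 to 0.32 for prdx1 and -0.11 to 0.12 for nfe2l2a. At 5 against 0.5 mGy/h it gave -0.32 to 0.085 for sod1, -0.21 to 0.0037 for cat, -0.053 to 0.29 for gpx1a, -0.12 to 0.25 for gpx4b, -0.022 to 0.22 for nfe2l2a, -0.11 to 0.046 for hmox1a and -0.11 to 0.20 for txn. In batch 1 same-numbered libraries did not deviate together (mean r = -0.18), so the numbers pair nothing there. With 3 libraries a group, 1 library decided several values.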
